A study of Mus musculus with 12 samples.

Results

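The small leucine-rich proteoglycans are a family of secreted matrix proteins, and 9 of their genes were followed here by symbol: decorin (Dcn), biglycan (Bgn), asporin (Aspn), lumican (Lum), fibromodulin (Fmod), Prelp, osteomodulin (Omd), osteoglycin (Ogn) and podocan (Podn). They were 9 of the 46983 genes in the count tables, chosen by membership of the family. All 9 had reads in all 12 samples and passed the filter on low counts that left 14706 genes for testing.

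RNA from the left ventricle (LV) of offspring aged 12 weeks was profiled by sequencing from the 3′ end in 4 groups of 3 mice. The groups were wild-type (Wt) littermates and Hif1a+/- mice from non-diabetic pregnancy, and Wt and Hif1a+/- mice from diabetic pregnancy. All offspring came from FVB mothers mated with Hif1a+/- fathers, and diabetes was induced in the mothers with streptozotocin, so the offspring themselves received no drug. The Hif1a+/- mice carry 1 null allele in all tissues, so a difference cannot be assigned to heart muscle or to any other cell type, and the mice were drawn from several litters that the labels do not name.

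The total count per sample ran from 16132442 to 39812939. The sample labels say female whereas the description of the design says male, and Y-linked genes outnumbered Xist in 11 of the 12 libraries. The exception was Hif1a+/- diabetic sample 72, and the results that turned most on it are also given without it, an alternative that for the gene lists was added after seeing the data. The 6 ventricular cardiomyocyte markers summed to between 72730 and 82270 CPM (counts per 1000000, with library sizes scaled by the TMM method) in every library. The Hif1a transcript itself averaged 61.5 ± 8.96 CPM in Wt and 85.7 ± 6.01 CPM in Hif1a+/- mice after non-diabetic pregnancy, and 55.3 ± 6.37 and 72.3 ± 8.49 CPM after diabetic pregnancy (SD, n = 3). It was thus higher in the heterozygotes, by 0.43 on the log2 scale when averaged over pregnancies (SE 0.087, edgeR adjusted p = 0.596, DESeq2 adjusted p = 0.0314). Without sample 72 the difference was 0.47 (DESeq2 adjusted p = 0.0148). The files hold no read positions, so whether the counted 3′ reads come from the altered allele was not tested, and this level was not used as a check of the genotype labels.

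Each protein of the family is a curved stack of leucine-rich repeats that binds collagen fibrils, and most carry chondroitin, dermatan or keratan sulfate chains. They set the diameter and spacing of the fibrils and hold growth factors such as TGF-β in the matrix. In the heart they are made mainly by fibroblasts, and decorin, biglycan and lumican are known as components of the scar. The family is divided into classes by sequence, with decorin, biglycan and asporin in class I, lumican, fibromodulin, Prelp and osteomodulin in class II, osteoglycin in class III and podocan among the non-canonical classes.

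Several of the genes are neighbours in the genome (GRCm38, GENCODE M21 coordinates). Dcn (chr10:97479609-97518143, plus strand) and Lum (chr10:97565128-97572703, plus strand) were 47.0 kb apart, followed by their relatives Kera and Epyc. Aspn (chr13:49544443-49567565), Omd (chr13:49582462-49592822) and Ogn (chr13:49608046-49624501) lay in a row on the plus strand with gaps of 14.9 and 15.2 kb, behind Ecm2, and all within the span of Cenpp on the other strand. Prelp (chr1:133910304-133921414, minus strand) and Fmod (chr1:134037254-134048277, plus strand) were 116 kb apart. Bgn (chrX:73483602-73495933, plus strand) and Podn (chr4:108014791-108096445, minus strand) had no family member beside them. Of the Prelp exon bases, 350 (9.68%) are shared with the antisense gene Gm15851, which had 0 to 2 counts per sample. The strand setting of the authors' counting is not given in the sources used here.

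Promoter sequences of 300 bases (250 before and 50 after the transcription start, RefSeq, GRCm38.p6) were at hand for 7 of the 9 genes, with none for Dcn and Lum. They were searched on both strands for the core of the site bound by hypoxia-inducible factors (ACGTG or GCGTG), since Hif1a is the gene altered here, for the TATA box letters TATAAA and for the AP-1 site TGANTCA. A core was found in 4 of the 7 genes, Bgn, Aspn, Prelp and Podn, where 44.0% of all 32544 promoters of the table hold one. The 7 genes had 8 promoters, as Podn had 2, each with a core. The count of 4 is thus per gene and the 44.0% per promoter. The AP-1 letters were in none of the 7 and in 7.79% of all promoters. The 4 promoters below are those of the genes whose group values are discussed most (Bgn and Prelp) and of 2 neighbours of the chromosome 13 row (Aspn and Ogn). Each is printed 5′ to 3′ on its gene's strand, and capitals mark the matches, which read CACGT or CACGC where the core is on the opposite strand and TTTATA where the TATA letters are.
Bgn promoter, chrX:73483351-73483650, plus strand: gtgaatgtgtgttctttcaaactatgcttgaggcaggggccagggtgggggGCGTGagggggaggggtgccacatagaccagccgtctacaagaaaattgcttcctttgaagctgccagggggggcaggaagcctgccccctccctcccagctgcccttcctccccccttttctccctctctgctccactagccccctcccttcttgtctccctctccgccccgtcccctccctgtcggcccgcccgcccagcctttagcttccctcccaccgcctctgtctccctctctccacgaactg
Prelp promoter, chr1:133921352-133921651, minus strand: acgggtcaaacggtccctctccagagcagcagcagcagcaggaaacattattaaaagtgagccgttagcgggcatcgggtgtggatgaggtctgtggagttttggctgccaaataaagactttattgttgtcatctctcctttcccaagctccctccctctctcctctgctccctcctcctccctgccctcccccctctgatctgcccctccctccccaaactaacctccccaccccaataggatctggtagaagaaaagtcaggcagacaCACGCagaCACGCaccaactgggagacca
Aspn promoter, chr13:49544193-49544492, plus strand: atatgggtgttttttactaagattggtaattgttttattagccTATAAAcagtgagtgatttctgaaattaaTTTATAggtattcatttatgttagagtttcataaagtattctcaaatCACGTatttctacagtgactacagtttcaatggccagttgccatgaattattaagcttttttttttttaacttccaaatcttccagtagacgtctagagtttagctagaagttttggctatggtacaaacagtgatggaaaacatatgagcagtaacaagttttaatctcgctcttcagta
Ogn promoter, chr13:49607765-49608064, plus strand: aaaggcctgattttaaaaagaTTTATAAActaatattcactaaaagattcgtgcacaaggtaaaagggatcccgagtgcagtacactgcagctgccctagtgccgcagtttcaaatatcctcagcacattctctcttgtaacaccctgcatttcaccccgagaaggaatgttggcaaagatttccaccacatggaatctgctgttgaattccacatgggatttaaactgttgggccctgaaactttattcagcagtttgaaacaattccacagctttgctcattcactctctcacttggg

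In Bgn the GCGTG core began 199 bases before the start, in a promoter of 63.7% G and C. Prelp had 2 cores after its start, at positions 22 to 26 and 30 to 34, on the opposite strand. Aspn had an ACGTG core 131 to 127 bases before the start and 2 matches to TATAAA, in a promoter of only 31.0% G and C against a median of 53.0% over all promoters. Ogn had no core and 2 overlapping TATAAA matches, letters held by 13.6% of all promoters. These matches describe the letters only, and binding was not measured.

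Decorin was by far the most abundant transcript of the family in the LV. In CPM it averaged 744, against 328 for Bgn and 149 for Ogn. Per kb of exon it averaged 127 ± 20.0 CPM (SD, n = 12), 2.2 times Ogn, the next in order per kb, at 58.0 ± 6.05 CPM per kb. Bgn followed at 53.9 ± 7.46, Lum at 48.8 ± 13.4, Aspn at 22.2 ± 2.59 and Prelp at 18.9 ± 3.66 CPM per kb. Podn was lower, at 2.56 ± 0.585, and Fmod (0.461 ± 0.135) and Omd (0.352 ± 0.107 CPM per kb) were lower still, with 14 to 63 and 9 to 24 counts per library. The ranges of the 12 samples did not overlap between Dcn and Ogn, Lum and Aspn, Prelp and Podn, or Podn and Fmod. They overlapped between Ogn and Bgn, with Ogn higher in 8 of 12 samples, and between Bgn and Lum (8 of 12). The same held for Aspn and Prelp (9 of 12) and for Fmod and Omd (11 of 12). These neighbours were thus not separated by their spread per kb. Reads from the 3′ end need not rise with exon length, so division by it can lower genes with long exons. The exons of Bgn span 6.10 kb and those of Ogn 2.57 kb. The order per kb is therefore no better guide to transcript levels than the order by CPM. On the scale of CPM itself Bgn (271 to 451) lay above Ogn (116 to 175) and Lum (85.3 to 200.0) without overlap. The mean CPM of Prelp stood above that of Aspn, with overlapping ranges.

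**Figure D1:**
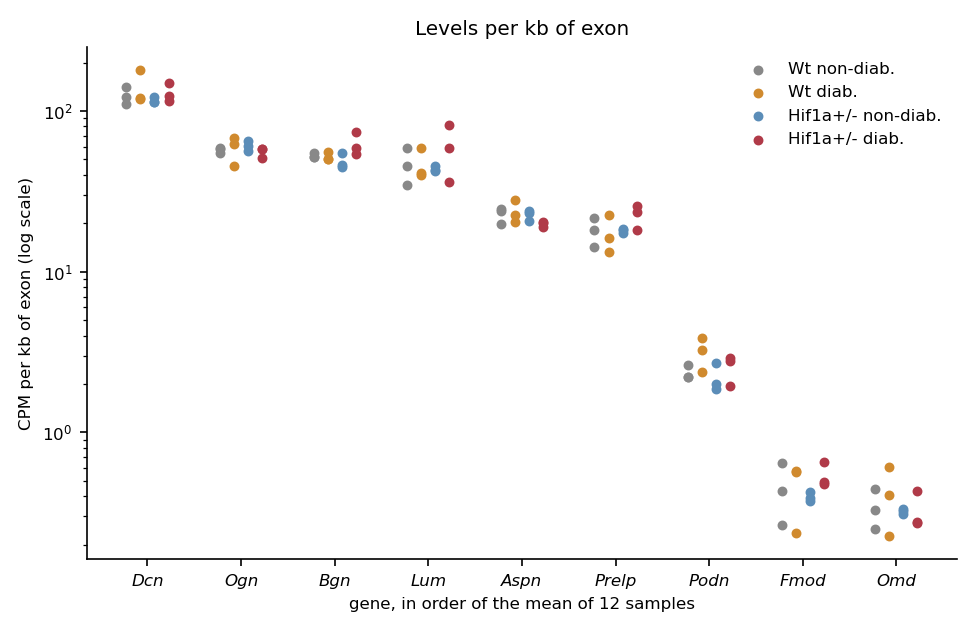
Levels of the 9 genes in all 12 LV samples, as CPM per kb of exon on a log axis, in the order of their means. Points are single mice, coloured by group. The genes span from 127 CPM per kb for Dcn to 0.352 for Omd, with gaps after Dcn, Lum, Prelp and Podn. Reads were from the 3′ end, and by mean CPM Bgn stood above Ogn and Prelp above Aspn.

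Together the 9 transcripts made up between 0.13% and 0.182% of the gene counts of a library, and Dcn alone was 44.0% to 56.3% of the family's CPM. The lowest Dcn share, 44.0%, was in Hif1a+/- diabetic sample 72, in which Bgn and Lum were at their highest. Ogn varied least over the 12 samples (coefficient of variation 10.4%) and Omd most (30.4%). The summed CPM averaged 1436 ± 142 in Wt non-diabetic, 1530 ± 285 in Wt diabetic, 1366 ± 27.9 in Hif1a+/- non-diabetic and 1565 ± 175 in Hif1a+/- diabetic mice (SD, n = 3).

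The main question of the design is whether maternal diabetes alters the LV differently in Wt and Hif1a+/- offspring. Among the 9 genes the mean levels of Bgn, Lum, Prelp and Fmod were highest in Hif1a+/- mice from diabetic pregnancy. Those of Dcn, Aspn, Omd and Podn were highest in Wt mice from diabetic pregnancy. Ogn stayed within 143 to 155 CPM in all group means. None of the 9 passed the edgeR test at an adjusted p under 0.1 in any of the 8 comparisons, where 0% of all genes tested passed. DESeq2 called none of the 9 either, in a background of 1.44% of genes for diabetic against non-diabetic pregnancy in Hif1a+/- mice and of at most 1.46% in any comparison. DESeq2 shares are of the genes given an adjusted p, 13951 for diabetes in Hif1a+/- mice and up to 27079 elsewhere. They are thus not on 1 gene set. All these comparisons draw on the same 12 libraries, so their values are not independent of each other.

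Biglycan, which binds collagen and, when released from the matrix, Toll-like receptors, had 313, 316 and 336 CPM in the 3 Wt mice from non-diabetic pregnancy and 305, 307 and 339 CPM in Wt mice from diabetic pregnancy. The Hif1a+/- mice from non-diabetic pregnancy had 271, 282 and 336 CPM. Those from diabetic pregnancy had 330.0, 451 and 356 CPM, the highest value being sample 72. In that library the Xist count (3599) exceeded the Y-linked sum (26), against the other libraries. Bgn lies on chromosome X, and the part of sex in its values was not tested. The Hif1a+/- groups overlapped only in that the lowest diabetic value (330.0) fell under the highest non-diabetic one (336), and the Wt groups overlapped broadly.

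Between diabetic and non-diabetic pregnancy, Bgn differed by 0.35 on the log2 scale in Hif1a+/- mice (SE 0.116, 95% interval 0.104 to 0.605, edgeR adjusted p = 0.299, DESeq2 adjusted p = 0.154). In Wt mice the difference was -0.02 (interval -0.27 to 0.23). The difference between those 2 effects was 0.37 (SE 0.164, interval 0.021 to 0.729, edgeR adjusted p = 0.998). Bgn was 1 of 9 members at an unadjusted edgeR p under 0.05 in the Hif1a+/- comparison, where 12% of all genes were, 1 of 9 in the interaction, where 2.52% were, and 1 of 9 between genotypes after diabetic pregnancy, where 5.35% were. Without sample 72 Bgn differed by 0.22 with diabetes in Hif1a+/- mice (edgeR adjusted p = 0.588), by 0.12 between genotypes after diabetic pregnancy, and by 0.24 in the interaction (SE 0.143, edgeR adjusted p = 1.0). None of these 3 then had an unadjusted edgeR p under 0.05. Over 20 other fits (other tools, scalings, filters and single mice left out) its adjusted p ran from 0.0624 to 0.629, and it passed in 2 of them, namely edgeR with no genes removed for low counts and limma-voom with sample weights. Leaving out 1 sample in the DESeq2 fit also brought Bgn past the threshold 3 times, without Wt diabetic 80 (adjusted p = 0.099), without Hif1a+/- non-diabetic 44 (0.0893) and without Hif1a+/- diabetic 66 (0.0732).

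Decorin, which limits the lateral growth of collagen fibrils and binds TGF-β, had 642, 711 and 817 CPM in Wt non-diabetic and 707, 691 and 1045 CPM in Wt diabetic mice. It had 711, 662 and 665 CPM in Hif1a+/- non-diabetic and 671, 726 and 877 CPM in Hif1a+/- diabetic mice. Every pair of groups overlapped, and the single highest value, 1045, belonged to Wt diabetic sample 80. The log2 difference with diabetes was 0.17 (interval -0.16 to 0.50) in Wt and 0.16 (interval -0.17 to 0.49) in Hif1a+/- mice (edgeR adjusted p = 1.0 and 0.689). Log2 differences of up to 0.49 in either genotype lie inside these intervals.

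Asporin is a collagen-binding relative of decorin that lacks a glycosaminoglycan chain. Of the abundant members only Aspn was lower in all diabetic Hif1a+/- mice than in every Hif1a+/- non-diabetic and every Wt diabetic mouse. Of all genes tested, 24.4% were separated without overlap in the first of these comparisons and 7.94% in the second. The Aspn values were 48.6, 55.9 and 54.9 CPM in Hif1a+/- non-diabetic and 47.7, 44.7 and 47.5 CPM in Hif1a+/- diabetic mice. In Wt mice they were 46.6, 56.0 and 57.8 CPM after non-diabetic and 65.7, 48.1 and 52.7 CPM after diabetic pregnancy. The diabetic Hif1a+/- values lay below those of both Hif1a+/- non-diabetic and Wt diabetic mice, though by less than 1 CPM from the nearest, and they overlapped those of Wt non-diabetic mice. The log2 difference was -0.19 (SE 0.118, edgeR adjusted p = 0.527) with diabetes in Hif1a+/- mice and -0.25 (SE 0.118, adjusted p = 0.862) between genotypes after diabetic pregnancy.

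Lumican, a keratan sulfate proteoglycan of fibrillar collagen, showed the widest spread of the abundant members. It had 85.3, 111 and 144 CPM in Wt non-diabetic and 101, 97.8 and 143 CPM in Wt diabetic mice. It had 105, 103 and 111 CPM in Hif1a+/- non-diabetic and 89.0, 200.0 and 144 CPM in Hif1a+/- diabetic mice. The diabetic Hif1a+/- group thus held values on both sides of its non-diabetic counterpart, and the 200.0 CPM was again sample 72. The log2 difference of 0.44 (SE 0.248, interval -0.095 to 0.975, edgeR adjusted p = 0.48) became 0.14 without that sample (adjusted p = 0.871). Its adjusted p ran from 0.0368 to 0.871 over the same 20 fits, and it passed only with no genes removed for low counts. It passed also in the DESeq2 fit without Hif1a+/- diabetic sample 66 (adjusted p = 0.0984).

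Prelp, which tethers collagen to heparan sulfate of basement membranes, had 51.8, 65.3 and 77.7 CPM in Wt non-diabetic and 48.03, 58.5 and 81.0 CPM in Wt diabetic mice. It had 62.8, 66.0 and 66.4 CPM in Hif1a+/- non-diabetic and 65.8, 84.8 and 92.3 CPM in Hif1a+/- diabetic mice. The last group overlapped the others through its lowest sample. The log2 difference with diabetes was 0.31 in Hif1a+/- mice (SE 0.183, interval -0.082 to 0.709, edgeR adjusted p = 0.495), and 0.29 without sample 72. After diabetic pregnancy Prelp differed between genotypes by 0.37 (SE 0.183, edgeR adjusted p = 0.862), and by 0.61 in the DESeq2 fit without Wt diabetic sample 80, where it passed the threshold (adjusted p = 0.0506).

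Fibromodulin and osteomodulin, the remaining class II members, were rare. Fmod, which shares a collagen-binding site with lumican, had 0.872, 2.14 and 1.43 CPM in Wt non-diabetic, 1.89, 0.783 and 1.89 in Wt diabetic, 1.29, 1.24 and 1.41 in Hif1a+/- non-diabetic and 1.62, 1.58 and 2.16 CPM in Hif1a+/- diabetic mice. All 3 diabetic Hif1a+/- values were above the non-diabetic ones, and the Wt values, from 0.783 to 2.14 CPM, overlapped both groups. The log2 difference was 0.44, but its interval ran from -0.318 to 1.198 (edgeR adjusted p = 0.618). Omd, known from bone matrix, ranged from 0.511 to 1.37 CPM with all groups overlapping, and its log2 difference with diabetes in Hif1a+/- mice was -0.01 (-0.23 without sample 72).

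Osteoglycin, a class III member also called mimecan, had the lowest coefficient of variation of the 9 (10.4%, next Aspn at 11.7%). The ratio of its highest to lowest sample, 1.51, was above that of Aspn (1.47). Ogn had 151, 150 and 141 CPM in Wt non-diabetic, 160, 116 and 175 in Wt diabetic, 144, 166 and 155 in Hif1a+/- non-diabetic and 149, 131 and 148 CPM in Hif1a+/- diabetic mice. The groups overlapped throughout. Its log2 difference with diabetes was 0.03 in Wt (interval -0.24 to 0.30) and -0.12 in Hif1a+/- mice (interval -0.39 to 0.15), so log2 differences above 0.30 or below -0.39 lie outside both intervals.

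Podocan, which has been linked to restraint of smooth muscle cell growth, was the member with the largest log2 difference in Wt mice. It had 11.2, 9.41 and 9.48 CPM in Wt non-diabetic and 10.1, 13.9 and 16.4 CPM in Wt diabetic mice. It had 11.5, 8.56 and 7.95 CPM in Hif1a+/- non-diabetic and 8.35, 11.8 and 12.5 CPM in Hif1a+/- diabetic mice. In both genotypes 2 of the 3 diabetic mice were above all non-diabetic mice and 1 was not. The log2 difference was 0.43 in Wt (SE 0.203, interval -0.007 to 0.866, edgeR adjusted p = 1.0), 0.20 in Hif1a+/- mice (SE 0.203, adjusted p = 0.697) and 0.32 averaged over genotypes (SE 0.143, edgeR adjusted p = 0.436, DESeq2 adjusted p = 0.393). In that average Podn was 1 of 9 members at an unadjusted edgeR p under 0.05, where 11.3% of all genes were. Without sample 72 the average was 0.29, with an unadjusted edgeR p of 0.0845 (adjusted p = 0.561), and the difference in Hif1a+/- mice was 0.15.

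**Figure D2:**
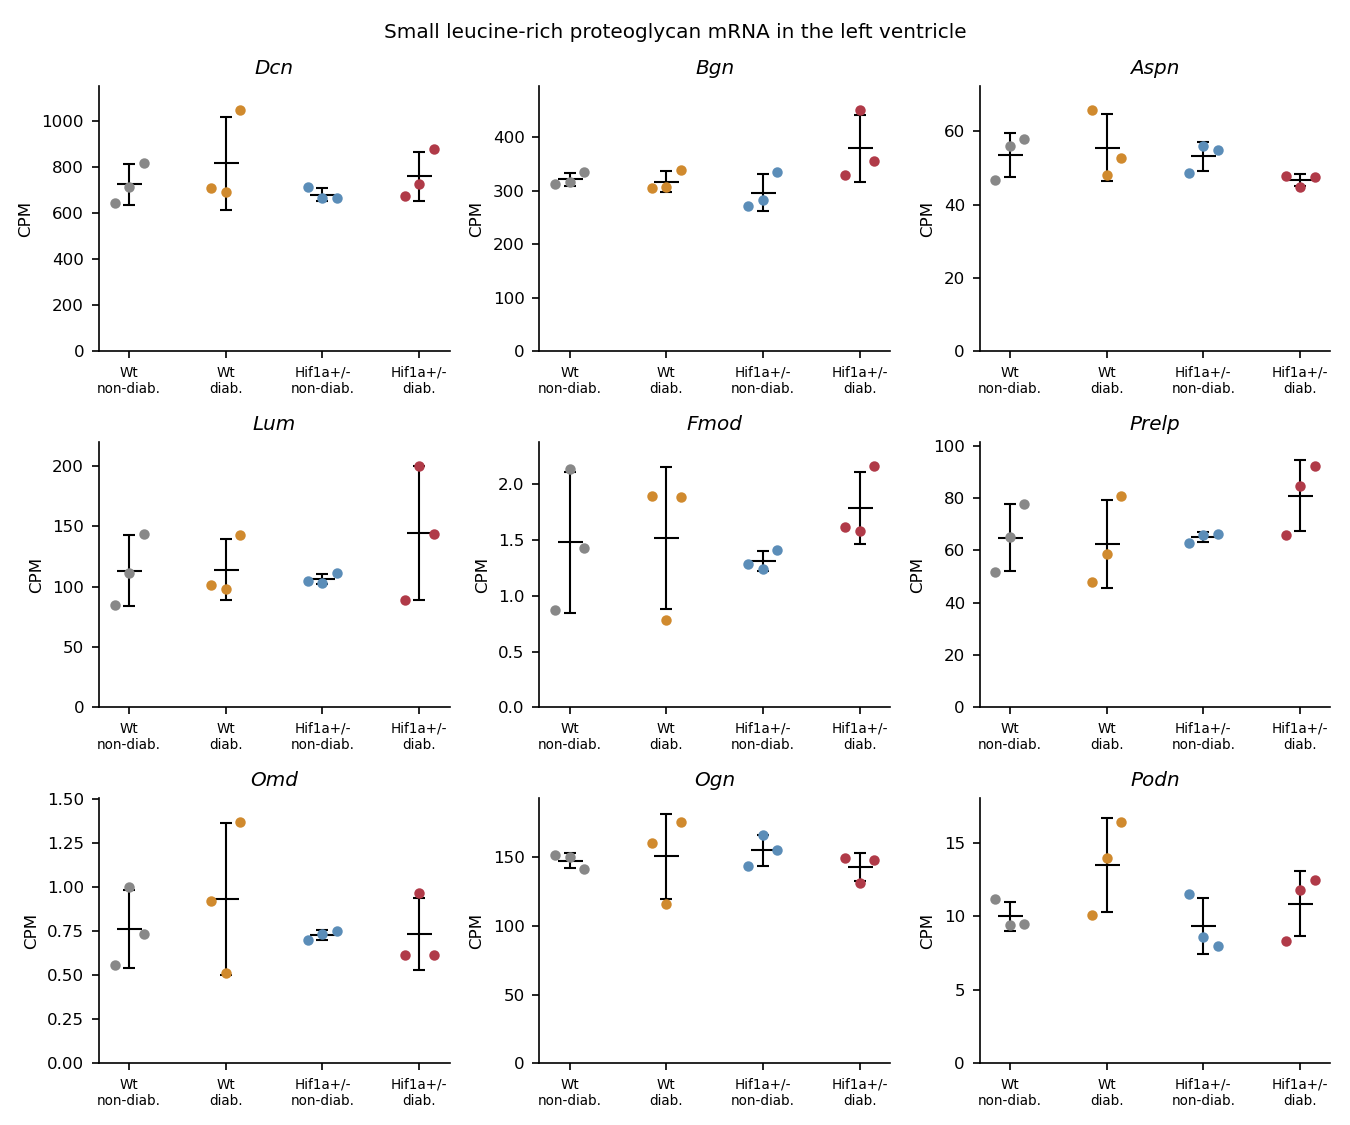
CPM of each gene in each mouse, by group, with linear axes from 0. Points are single mice, and horizontal marks and bars are the mean and SD of 3 mice. Bgn averaged 379 CPM in diabetic Hif1a+/- mice against 296 in the non-diabetic Hif1a+/- mice, and Ogn stayed within 143 to 155 CPM in all group means.

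Across the family, 6 of 9 log2 differences with diabetes were positive in Wt mice (median 0.03, median of all genes 0.01) and 6 of 9 in Hif1a+/- mice (median 0.20, median of all genes -0.01). In Wt mice edgeR had 409 genes and none of the 9 at an unadjusted p under 0.05, and DESeq2 called 4 genes (0.0148% of 27079). In Hif1a+/- mice edgeR had 1764 genes at an unadjusted p under 0.05, and DESeq2 called 201. Groups that did not overlap in CPM were seen for 0 of 9 members in Wt mice, where 5.54% of all genes tested had them. In Hif1a+/- mice they were seen for 2 of 9, Fmod higher and Aspn lower, where 24.4% of all genes had them, so the members were not separated more often than genes at large.

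Between genotypes after non-diabetic pregnancy the members lay close together, with log2 differences from -0.20 for Fmod to 0.07 for Ogn and a median of -0.09 (all genes 0.00). None of the 9 were separated without overlap (4.81% of all genes), and edgeR had 141 genes and none of the 9 at an unadjusted p under 0.05, while DESeq2 called 1 gene (0.00369%). After diabetic pregnancy 4 of 9 differences were positive, led by Prelp at 0.37, Lum at 0.34 and Bgn at 0.26, and 5 were negative, with Podn at -0.32, Omd at -0.31 and Aspn at -0.25. Without sample 72 these were 0.34 for Prelp, 0.03 for Lum, 0.12 for Bgn, -0.38 for Podn, -0.54 for Omd and -0.22 for Aspn. Aspn was the 1 member of 9 separated without overlap (7.94% of all genes). In that comparison edgeR had 787 genes at an unadjusted p under 0.05, and DESeq2 called 24 (0.155%).

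Diabetic Hif1a+/- mice against non-diabetic Wt mice gave a median of 0.11 over the 9 members, with 6 positive and none separated without overlap (14.6% of all genes). Leaving out sample 72 took Lum to 0.04 and Bgn to 0.10 there. There edgeR had 1302 genes and none of the 9 at an unadjusted p under 0.05, and DESeq2 called 68 genes (0.453%). The interaction of genotype and diabetes had 371 genes at an unadjusted p under 0.05 in edgeR and 0 calls in DESeq2 (0%). Averaged over genotypes, the effect of diabetes was positive for 7 of 9 members (median 0.16), with 1660 genes at an unadjusted p under 0.05 in edgeR and 203 called by DESeq2 (1.46%). Averaged over pregnancies, the genotype effect had a median of 0.00, with 396 genes and no member at an unadjusted p under 0.05 in edgeR, and 7 genes called by DESeq2 (0.0259%).

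**Figure D3:**
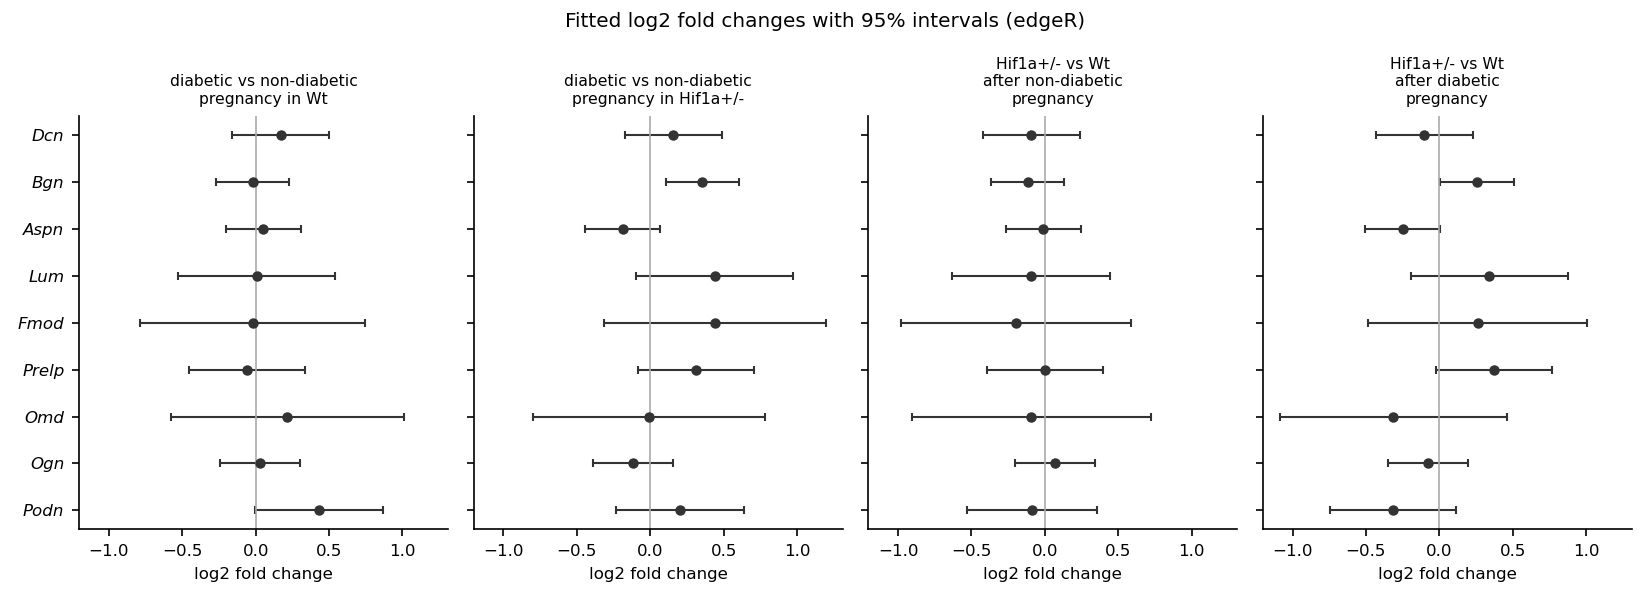
Log2 fold changes of the 9 genes in 4 comparisons, fitted with edgeR. Points are estimates and bars are 95% intervals. In Hif1a+/- mice the interval of Bgn after diabetic against non-diabetic pregnancy (0.104 to 0.605) lies above 0, and the other 8 include 0. The vertical lines mark no difference.

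Of 9 further genes of the wider family, 5 were tested. None passed in any comparison by edgeR or DESeq2, and none was at an unadjusted edgeR p under 0.05 for diabetes in Hif1a+/- mice (2 of 6 tested without sample 72). Chadl was at an unadjusted edgeR p of 0.0249 in diabetic Hif1a+/- against non-diabetic Wt mice (log2 0.60, groups not overlapping, edgeR adjusted p = 0.526) and of 0.0403 for diabetes averaged over genotypes (log2 0.39, edgeR adjusted p = 0.429). Without sample 72 its unadjusted p was 0.0875 in both. Ecm2, the neighbour of Aspn, averaged 31.8 CPM, and Tsku, which binds BMP and other growth factors, averaged 4.93 CPM. Chadl averaged 1.42, Nyx 0.625 and Chad 0.457 CPM. Kera, Podnl1, Optc and Epyc had 2, 19, 22 and 75 counts in all 12 libraries together and were not tested. Keratocan, the product of Kera, marks corneal stroma.

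The collagens that these proteoglycans bind, and the enzymes that finish both, were examined as lists in the comparison of diabetic and non-diabetic pregnancy in Hif1a+/- mice. There 12% of all genes had an unadjusted edgeR p under 0.05, and DESeq2 called 1.44%. Of 11 fibrillar collagen genes tested, 9 differences were positive (median 0.27), 2 had an unadjusted edgeR p under 0.05 and none passed in edgeR or DESeq2. In Wt mice 9 of the 11 were negative (median -0.17). Between genotypes after diabetic pregnancy all 11 were positive (median 0.53), 8 of them at an unadjusted edgeR p under 0.05, where 5.35% of all genes were. Without sample 72 the last comparison had 10 of 11 positive (median 0.43) and 3 at that p. The comparison by diabetes in Hif1a+/- mice then had 7 of 11 positive (median 0.15) and 1 at that p. Counts without sample 72, here and for the other lists, stand without a share over all genes. Col5a3 (log2 -1.14) was the 1 gene of the list at that p in Wt mice, and without sample 72 it passed there in DESeq2 (adjusted p = 0.0381). Col3a1, which encodes type III collagen, differed by 0.44 (SE 0.245, edgeR adjusted p = 0.474), and it passed in DESeq2 between genotypes after diabetic pregnancy (419 against 223 CPM, DESeq2 adjusted p = 0.0821). Of 12 collagen processing and cross-linking genes 10 were positive (median 0.27). An unadjusted edgeR p under 0.05 was seen for 7 of the 12, 6 of them positive, and for 5 without sample 72. DESeq2 called 2. These were Pcolce, an enhancer of procollagen C-proteinase (log2 0.45, DESeq2 adjusted p = 0.0332), and Plod3, a lysyl hydroxylase (0.29, adjusted p = 0.0814). Loxl2, a lysyl oxidase, passed in DESeq2 between genotypes after diabetic pregnancy (30.1 against 18.4 CPM, DESeq2 adjusted p = 0.0711). Without sample 72 none of these 4 passed, with DESeq2 adjusted p = 0.664 for Col3a1, 0.21 for Pcolce, 0.214 for Plod3 and 0.251 for Loxl2.

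Of 20 tested genes for the chondroitin and dermatan sulfate chains, 12 were positive (median 0.07) and DESeq2 called 1, B3gat3, which completes the linker that attaches the chain (45.7 against 36.2 CPM, DESeq2 adjusted p = 0.0223). Of 4 tested genes for keratan sulfate, 2 were positive, 1 had an unadjusted edgeR p under 0.05 and none passed, B4galt1 differing by 0.28 and B4galt4 by 0.28 on the log2 scale. Of 16 large and heparan sulfate proteoglycans, 12 were positive (median 0.14), 4 had an unadjusted edgeR p under 0.05 and none passed, with Vcan at 0.67 (DESeq2 adjusted p = 0.157) and Prg4 at 0.96 (DESeq2 adjusted p = 0.235). Of 10 proteases that cut these proteins, 8 were positive and DESeq2 called Mmp9 (4.04 against 1.54 CPM, adjusted p = 0.0801). Of 19 growth factors and receptors linked to the family, 15 were positive (median 0.23) and DESeq2 called 3. They were Tgfbr2, the type II TGF-β receptor (83.2 against 62.4 CPM, adjusted p = 0.0277), Cd14, a co-receptor for biglycan at Toll-like receptors (13.3 against 6.61 CPM, adjusted p = 0.0123), and Lrp1, an endocytic receptor for decorin (229 against 155 CPM, adjusted p = 0.059). None of these genes passed in edgeR with all 12 samples. Without sample 72, B3gat3 (DESeq2 adjusted p = 0.111) and Mmp9 (log2 1.35 with all samples and 0.80 without, DESeq2 adjusted p = 0.577) no longer passed. Tgfbr2, Cd14 and Lrp1 passed in DESeq2 without it too (adjusted p = 0.00121, 0.00145 and 0.0739), as did Prg4, and Tgfbr2 then also passed in edgeR (adjusted p = 0.0892).

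Some fibroblast markers passed in DESeq2 in the same comparison. All 10 fibroblast markers had positive differences in Hif1a+/- mice (median 0.50). Of these edgeR called 0, with 8 at an unadjusted p under 0.05 (12% of all genes), and DESeq2 called 4 (1.44% of all genes). These were Dpt (0.57 on the log2 scale, adjusted p = 0.0045), Mfap5 (0.91, 0.00155), Cd248 (1.08, 0.00238) and Pi16 (1.55, 0.00687). Pdgfra, Tcf21, Gsn, Scara5, Lsp1 and Tnxb were not called. The paper lists the 4 called genes as changed in diabetic Hif1a+/- hearts, from the same libraries. As the lists here were chosen with earlier results known, the 4 calls are not independent support. The 10 summed to between 2024 and 2390 CPM in Hif1a+/- non-diabetic and between 2505 and 3125 CPM in Hif1a+/- diabetic mice, against 2027 to 2647 and 2256 to 3511 CPM in the Wt groups. No defining marker of the list was at 0. Without sample 72 DESeq2 called 6 of the 10, these 4 with Scara5 and Tnxb, and edgeR called Mfap5 (adjusted p = 0.0892) and Pi16 (adjusted p = 0.0575). The part of these markers in the values of the members was not tested. In LV tissue, a change in the number of cells of a type and a change in RNA per cell cannot be told apart.

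Of the 5 macrophage markers, all were positive in Hif1a+/- mice (median 0.79). All 5 had an unadjusted edgeR p under 0.05 (12% of all genes) and groups without overlap (24.4% of all genes). DESeq2 called 2 (1.44% of all genes), C1qa (99.9 against 49.6 CPM, DESeq2 adjusted p = 0.00724) and Mrc1 (44.5 against 24.3 CPM, DESeq2 adjusted p = 0.0321). Without sample 72 DESeq2 called both of these and Cd68. They summed to 104 to 162 CPM in Hif1a+/- non-diabetic and 203 to 321 CPM in Hif1a+/- diabetic mice, against 134 to 195 and 146 to 238 CPM in the Wt groups. Of 5 smooth muscle markers 4 were negative, and Myh11 passed in DESeq2 (16.7 against 28.6 CPM, adjusted p = 0.097), while the 5 summed to 386 to 446 CPM in non-diabetic and 359 to 436 CPM in diabetic Hif1a+/- mice. Without sample 72 Myh11 did not pass (adjusted p = 0.31). No marker of activated fibroblasts (8 tested), valve, tendon and cartilage (6), epicardium (4), adipocytes (4), endothelium (5), Schwann cells (4), ventricular (6) or atrial (4) cardiomyocytes passed in that comparison by edgeR or DESeq2, and 6 of them had an unadjusted edgeR p under 0.05. The 2 leading genes of the lists without any call had log2 differences of 0.36 (Comp) and -0.21 (Thbs4), -0.39 (Wt1) and 0.70 (Upk3b), 1.41 (Adipoq) and 0.85 (Cfd), -0.97 (Kcna1) and -0.38 (Gfra3), -0.32 (Ttn) and 0.18 (Myl2), and -0.63 (Myl4) and -0.89 (Sln). Averaged over genotypes, Cytl1 of the valve and cartilage list (0.48, DESeq2 adjusted p = 0.0102) and Emcn of the endothelial list (0.35, DESeq2 adjusted p = 0.000813) passed, and both did without sample 72.

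Some members varied together from mouse to mouse. Over the 12 samples the correlation of log2 CPM was above 0 for 27 of 36 pairs and above 0.5 for 11, with a median r of 0.32. It was highest for Lum with Prelp (r = 0.81) and for Lum with Bgn (r = 0.79), and the lowest value was -0.37 for Bgn with Aspn. Ogn, Omd and Aspn, neighbours on chromosome 13, had r values of 0.53 (Omd and Ogn), 0.48 (Aspn and Ogn) and 0.37 (Aspn and Omd), whereas Dcn and Lum on chromosome 10 had r = 0.60. Once the group means were removed, Dcn and Prelp were the closest pair (r = 0.89) and Aspn and Podn the farthest apart (r = -0.71). These coefficients describe 12 libraries that share group structure and scaling.

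**Figure D4:**
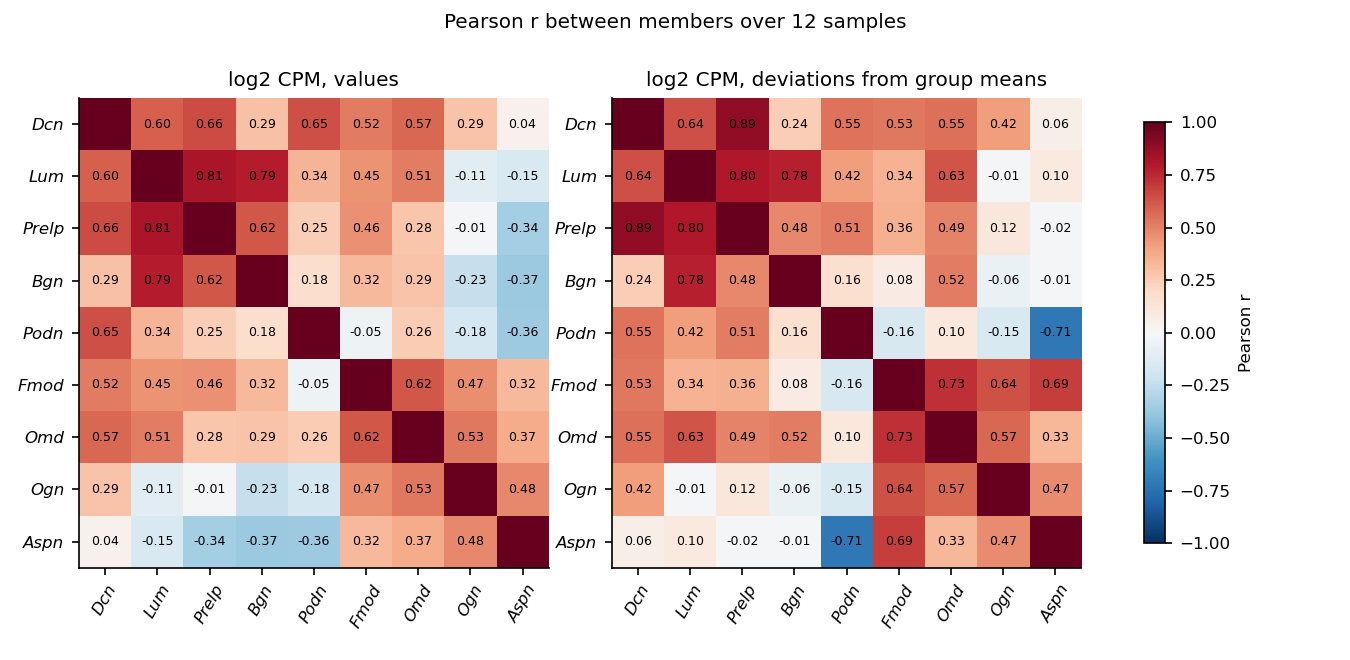
Pearson r of log2 CPM between each pair of genes over 12 samples, from the values (left) and from the deviations from group means (right). Red is positive and blue negative. Lum, Prelp and Bgn have r of 0.62 to 0.81 with each other in the left panel, and Aspn is at or below 0.04 with all of these and Dcn.

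Outside the family, the genes most like the mean of the 9 standardized profiles over the 12 samples were Tnfsf12 (r = 0.98), Psme2 (0.96), Gas5 (0.95), Gm11264 (0.94), Rtf2 (0.94) and 1600002K03Rik (0.94). Only 2 of these 6, Tnfsf12 and Rtf2, were also among the 6 closest when group means were removed. The single closest gene was Ciao1 for Dcn (r = 0.94), Clec11a for Bgn (0.93), Tmc7 for Aspn (0.94), Trappc4 for Lum (0.94), Tlcd2 for Fmod (0.90), Mxra8 for Prelp (0.97), Rtn2 for Omd (0.88), Map2k5 for Ogn (0.90) and Trim21 for Podn (0.93). With 14706 genes and 12 samples, values this high were picked as the largest of many.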

How the data were processed

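LV RNA of 12 mice was sequenced from the 3′ end. Per the labels and the study's methods, the authors trimmed reads with Trimmomatic, removed ribosomal reads, aligned them to GRCm38 with STAR 2.5.2b and counted them per GENCODE M8 gene with HTSeq in union mode. The deposited counts used here are raw whole numbers, and the authors' DESeq2-normalized tables were not used. HTSeq's tally lines were left out of library sizes (as shares of all entries of a file, no feature 3.34% to 4.61%, ambiguous 3.24% to 3.49%, multi-mapped 12.4% to 17.0%). Symbols came from GENCODE M21, under which the listed genes Ctgf and Wisp1 are Ccn2 and Ccn4.

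Genes were filtered with filterByExpr (14706 kept of 27093 with a count) and tested with edgeR 4.0.16 (TMM, quasi-likelihood, 1 mean per group over all 12 samples, Benjamini-Hochberg, threshold 0.1; R 4.3.3). DESeq2 1.42.0 and limma 3.58.1 served as alternatives, and the scripts were tested on simulated data. The common biological coefficient of variation was 13.7%. Levels per kb used M21 exon lengths, and correlations used log2(CPM + 0.5). Other steps used Python 3.11.15, pandas 2.3.3, scipy 1.17.1 and matplotlib 3.10.9.

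The members, the gene lists and the tests were chosen with earlier results of these data known. Col3a1, Loxl2, Mmp9, Tgfbr2, Cd14, Lrp1, C1qa, Mrc1 and Myh11 are also in the paper's list of changed genes from these libraries. Their calls are thus not independent support for a change of their lists. Named were the 9 members, the other family genes, and from each list of pathway or marker genes those called by edgeR or DESeq2 in any comparison (up to 6, otherwise the 4 with the smallest edgeR p in Hif1a+/- mice by diabetes, or 2 where none was called), besides the genes most like the members and Hif1a. Replicates are separate mice. Their gene counts differed by more than sampling noise in all 12 pairs within groups (chi-square per gene 5.23 to 43.5), and p-values measure the spread between these mice. With no named litter or batch, no batch term could be fitted.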

Additional observations from a re-analysis of the deposited data

Results flagged for a closer look

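Fmod was picked out because the Hif1a genotype went opposite ways in the 2 kinds of pregnancy. All 3 diabetic Hif1a+/- mice were above the Wt diabetic mean of 1.52 CPM, and all 3 non-diabetic Hif1a+/- mice were below the Wt non-diabetic mean of 1.48 CPM. The Wt diabetic mean held 1 low mouse (0.783 CPM), and the others, at 1.89 CPM, were above diabetic Hif1a+/- mice at 1.62 and 1.58 CPM. With single samples left out, the genotype effect ran from -0.09 to 0.48 after diabetic and from -0.44 to 0.15 after non-diabetic pregnancy. The difference between the genotype effects was 0.46 on the log2 scale (SE 0.502, edgeR adjusted p = 0.998), with 14 to 63 counts per library, so the test of the difference did not pass.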

How the results depend on the processing

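No paired analysis was possible because the animal numbers are unique and the labels' replicate field numbers the groups. The count of members called stayed at 0 under each alternative except the following, all but the first 2 added after seeing the data. For diabetic against non-diabetic pregnancy in Hif1a+/- mice, 2 members passed with no filter on low counts (Bgn, log2 0.37, and Lum, 0.45) and 1 with limma-voom and sample weights (Bgn, 0.34). In DESeq2 fits leaving out 1 sample, between 0 and 2 members passed there (1 without Wt diabetic 80, 1 without Hif1a+/- non-diabetic 44, 2 without Hif1a+/- diabetic 66), and between 0 and 1 between genotypes after diabetic pregnancy (Prelp, without Wt diabetic 80). The share of all genes passing in those DESeq2 fits is not given here, so these member counts stand without a background. The cause of these changes was not tested. Counts over all genes moved far more. In the Hif1a+/- comparison edgeR called 0 genes, 592 with no filter, 101 with only the groups compared and 38 without Hif1a+/- diabetic 72, limma-voom 937 and DESeq2 201. The other 7 comparisons gave 0 in edgeR, 33 to 593 with no filter and 0 to 39 with limma-voom.

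The direction turned for Omd in Hif1a+/- mice by diabetes with no filter (0.01), and with limma-voom for Aspn between genotypes after non-diabetic (0.03) and Dcn after diabetic pregnancy (0.01). When single samples were left out, directions turned for these log2 differences of the pairwise comparisons, none of them called. With diabetes in Wt mice the ranges were -0.05 to 0.28 for Dcn, -0.07 to 0.01 for Bgn, -0.08 to 0.15 for Aspn, -0.19 to 0.21 for Lum, -0.26 to 0.34 for Fmod, -0.29 to 0.10 for Prelp, -0.15 to 0.55 for Omd and -0.09 to 0.19 for Ogn. With diabetes in Hif1a+/- mice the range was -0.23 to 0.12 for Omd. Between genotypes after non-diabetic pregnancy it was -0.18 to 0.01 for Dcn, -0.11 to 0.05 for Aspn, -0.27 to 0.11 for Lum, -0.44 to 0.15 for Fmod, -0.25 to 0.14 for Omd and -0.28 to 0.01 for Podn. After diabetic pregnancy it was -0.22 to 0.12 for Dcn, -0.09 to 0.48 for Fmod, -0.65 to 0.05 for Omd and -0.23 to 0.05 for Ogn. Between diabetic Hif1a+/- and non-diabetic Wt mice it was -0.05 to 0.16 for Dcn, -0.32 to 0.14 for Omd and -0.08 to 0.02 for Ogn. Prelp was at 0.0 between genotypes after non-diabetic pregnancy and ranged from -0.14 to 0.15. For the averages and the interaction only the fit without sample 72 is given here. The genotype average then turned for Bgn (from 0.07 to -0.004), Lum (from 0.123 to -0.034) and Ogn (from -0.002 to 0.025). The diabetes average turned for Omd (from 0.105 to -0.003), and the interaction for Dcn (from -0.013 to 0.024). Of the 9 genes, 5 held the same place in the order of levels by CPM as by CPM per kb.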
